A study of Mus musculus with 4 samples.

Results

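The genes described here are 52 mouse genes whose products build the mitotic spindle, attach chromosomes to it, condense the chromosomes or drive the cell into and out of mitosis. They were taken from a list of symbols grouped by function, and each symbol matched 1 of the 45232 gene identifiers in the count files. RNA sequencing had been done on leukemic granulocyte-macrophage progenitors (L-GMPs), the cells of an acute myeloid leukemia that resemble normal granulocyte-macrophage progenitors. The leukemia was driven by the fusion oncoprotein MLL-AF9, and the cells were sorted from secondary recipient mice when these died. One group is labelled miR-99 KD, for a knockdown of the microRNA miR-99 (2 mice), and the other Scr (2 mice), with 1 library per mouse. By the labels, sorted cells of both groups carried the reporters GFP and tdTom and the surface markers CD34, CD16/32, c-Kit and Sca-1. The sources used here do not say what Scr stands for, how miR-99 was knocked down, how old the mice were or whether all 4 carried the same primary leukemia. The genes are described by role in 2 miR-99 KD against 2 Scr libraries.

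Mitosis is started by the kinase CDK1 bound to cyclin B, which sets off chromosome condensation and spindle assembly. Kinetochores, protein assemblies on the centromeres, then bind spindle microtubules, and the spindle assembly checkpoint holds the cell until every chromosome is attached. The anaphase-promoting complex next marks securin and cyclin B for destruction, the sister chromatids part, and the cell divides between them. Many of these genes are transcribed mainly in G2 and mitosis, under B-Myb with the MuvB complex, FOXM1 and NF-Y, so their summed RNA is commonly taken as a measure of proliferation. In bulk RNA, a larger share of cells in G2 and mitosis and more of these transcripts per dividing cell cannot be told apart.

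The libraries held 42674407 and 42529111 gene counts in miR-99 KD and 38458519 and 41870314 in Scr. Scr 1 stood apart: it had 28573 genes with at least 1 count, against 21372 and 24038 in miR-99 KD and 22310 in Scr 2, and 51.9 CPM (counts scaled to a common library size) from olfactory receptor genes, against 4.78, 15.0 and 5.52 in the same order. No library had a count for any of the 3 microRNA genes of the miR-99 family, Mir99a, Mir99b and Mir100, which allows at most 3 counts, so these libraries do not show the knockdown itself. Of the sort gate genes, Kit, Cd34 and Fcgr3 were each above 200 CPM in every library, whereas Ly6a, which encodes the Sca-1 of the stated gate, had 5 and 4 counts in miR-99 KD and 4 and 8 in Scr. Kit measured 307.3 and 234.2 CPM in miR-99 KD and 423.8 and 437.1 in Scr.

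All 52 mitosis genes were counted in all 4 libraries and passed the filter on low counts. Together they took 367559 and 406303 counts in miR-99 KD and 298845 and 322842 in Scr. Levels below are CPM scaled with the trimmed mean of M-values (TMM) factors of the libraries. On that scale the 52 genes summed to 8888 and 9629 CPM in miR-99 KD and 7265 and 7955 in Scr, a ratio of group means of 1.22. Both miR-99 KD sums lay above both Scr sums, and they did so as well without TMM factors (8613 and 9554 CPM in miR-99 KD, 7771 and 7711 in Scr, ratio 1.17). Single genes in single libraries ran from 10.2 CPM (Kifc1 in Scr 1) to 644.3 CPM (Top2a in miR-99 KD 1).

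None of the 52 genes passed an adjusted p of 0.05 in edgeR's quasi-likelihood test with Benjamini-Hochberg adjustment, and 0% of the 15591 genes tested did. The smallest adjusted p among the 52 was 0.600, for Kif11. DESeq2 and limma-voom also called 0 of the 52, while DESeq2 called 1.67% of all genes. At an unadjusted p under 0.05, 3 of the 52 (Kif11, Spc25 and Nuf2) were higher in miR-99 KD, against 2.66% of all genes, and 0 were lower, against 5.23%. DESeq2 put 4 of the 52 under that limit, against 7.18% of all genes in either direction, and limma-voom put 2, against 8.04%. The count of 3 depended on single libraries: it was 0 without Scr 1 and 23 without miR-99 KD 1, and with a library left out the remaining one of its group is assumed to vary like the other group.

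The direction was shared by most of the genes, which were measured in the same libraries and are no replicates. The log2 fold change of miR-99 KD over Scr was positive for 47 of the 52 and negative for 5 (Aurka, Incenp, Bub1, Bub1b and Ncapd2), whereas 49% of all genes tested were positive and 51% negative. With DESeq2 size factors Aurka also turned positive, at 0.03, which made 48. The median of the 52 was 0.25, against −0.01 over all genes, and single values ran from −0.17 for Bub1 to 0.97 for Ccna2. In 34 of the 52 both miR-99 KD libraries lay above both Scr libraries, against 18.9% of all genes, and in 1, Bub1, both lay below, against 25.3%. With upper-quartile scaling the first count was 24, beside 12.2% of all genes. Without Scr 1, 47 of the 52 were positive, the median was 0.32, and 38 had both miR-99 KD libraries above Scr 2, beside 35.6% of all genes. With all 4 libraries, 8 genes listed as a level check from outside mitosis had a median of 0.14, with 5 positive and 3 negative. Their values ran from −0.49 for Polr2a to 0.37 for Hprt. In 3 of the 8 both miR-99 KD libraries lay above both Scr libraries, and in 1 both lay below.

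**Figure D1:**
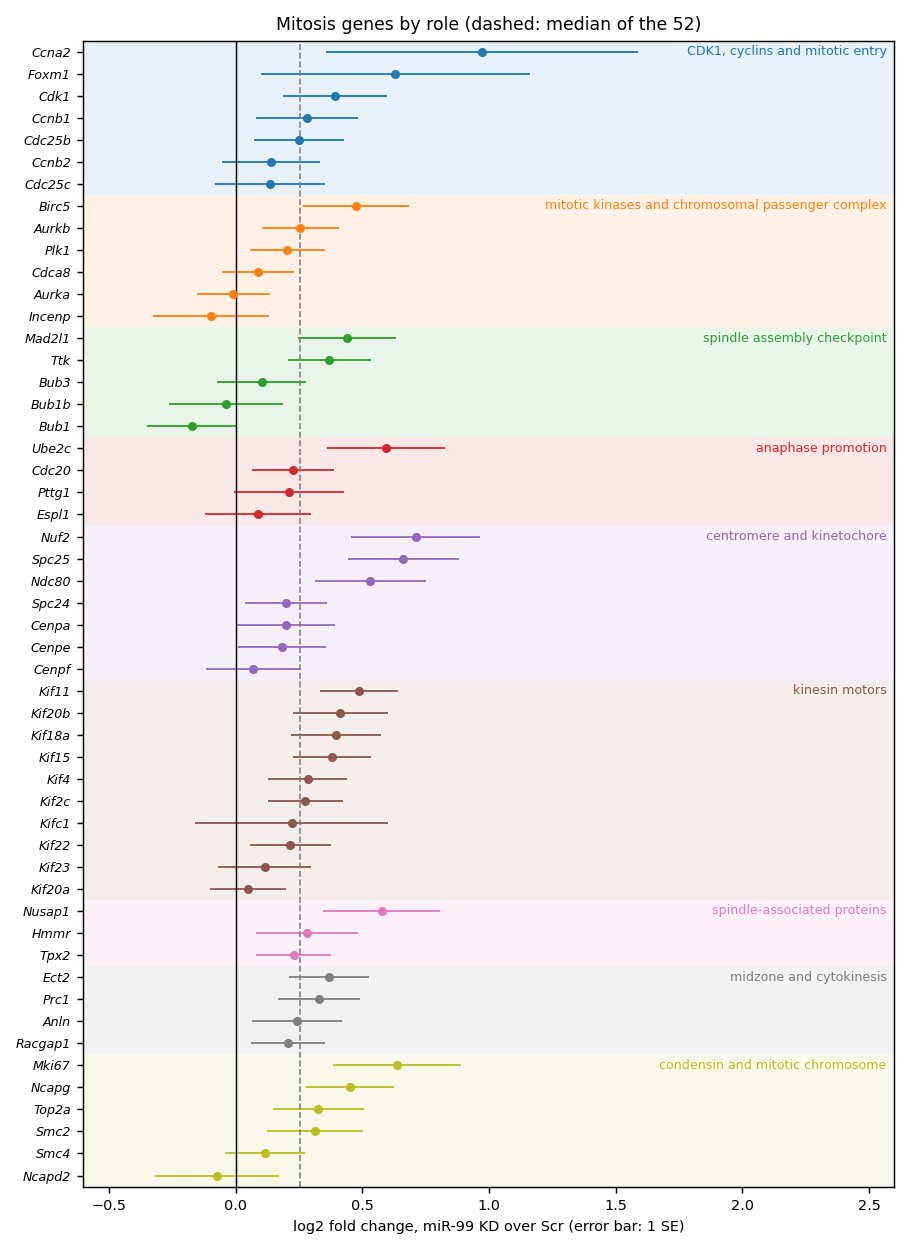
Log2 fold change of miR-99 KD over Scr on the x axis for the 52 mitosis genes, grouped by role, with bars of 1 standard error; the dashed line is the median of the 52. Of the 52 points, 47 lie right of 0, the median is at 0.25, and Ccna2 has both the highest value and the widest bar.

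The libraries of a group differed as well. miR-99 KD 2 had the highest level of the 4 libraries for 35 of the 52 genes and miR-99 KD 1 for 15, while Scr 2 was highest for 2 and Scr 1 for 0. Over all genes tested these shares were 30.6%, 18.0%, 26.8% and 24.6%. Scr 1 was lowest for 30 of the 52, Scr 2 for 14, miR-99 KD 2 for 5 and miR-99 KD 1 for 3. The lowest library was not counted over all genes. Each of the 4 pairings of a miR-99 KD with a Scr library had the same direction: miR-99 KD 1 was above Scr 1 for 46 genes and above Scr 2 for 42, and miR-99 KD 2 was above them for 47 and 44. The median differences in log2 CPM were 0.25, 0.18, 0.35 and 0.31 in that order. The 4 pairings reuse the same 4 libraries and are not independent. Over all genes tested the shares above were 49.3%, 45.9%, 50.3% and 43.8%, with medians of −0.01, −0.03, 0.01 and −0.11. Within miR-99 KD, library 1 was above library 2 for only 16 of the 52, with a median difference of −0.17. Over all genes that share was 53.5% and the median 0.04. Within Scr, library 1 was above library 2 for 17, with a median difference of −0.08 and a lowest value of −1.80, for Ccna2. The same share over all genes was 50.7%, with a median of 0.01. These counts and differences rest on the TMM factors, which were 1.07 for Scr 1 and 0.97 for Scr 2. Without the factors, the Scr sums of the 52 genes were in the other order, 7771 CPM in Scr 1 and 7711 in Scr 2. The ranks and pairings were not counted without them.

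The starters of mitosis are CDK1 itself, its cyclins, the CDC25 phosphatases that remove its inhibitory phosphates, and FOXM1, a transcription factor for G2 and mitosis genes. All 7 had positive log2 fold changes (median 0.28). In 4 both miR-99 KD libraries lay above both Scr libraries, against 18.9% of all genes. None of the 7 passed the test. They summed to 1044 and 1280 CPM in miR-99 KD and 729.6 and 974.9 in Scr. Cdk1 measured 178.9 and 243.0 CPM in miR-99 KD and 155.9 and 165.2 in Scr, with a log2 fold change of 0.39 ± 0.21 (standard error, adjusted p = 0.689). Both miR-99 KD values were higher, and miR-99 KD 2 stood well above the rest. Ccnb1, the main cyclin B, had 156.2 and 210.1 CPM in miR-99 KD and 148.5 and 153.0 in Scr (0.28 ± 0.20, adjusted p = 0.739). Ccnb2, a second B-type cyclin, had the highest level per length of all 52 genes, 173 CPM per kilobase of exon over the 4 libraries. Its levels were 239.3 and 315.3 CPM in miR-99 KD and 258.2 and 245.1 in Scr, so that the groups overlapped, and its log2 fold change of 0.14 turned to −0.04 without miR-99 KD 2.

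Ccna2, the cyclin of S phase and G2, had the largest fold change of the 52 and was singled out after its values were seen. It measured 303.0 and 351.3 CPM in miR-99 KD and 74.3 and 259.1 in Scr, a log2 fold change of 0.97 ± 0.61 (adjusted p = 0.713). Scr 1 alone was low, and without it the value was 0.41. Foxm1 had the same shape, with 92.8 and 78.0 CPM in miR-99 KD and 28.6 and 81.7 in Scr. Its log2 fold change was 0.63 ± 0.53 (adjusted p = 0.758) and 0.13 without Scr 1, and its groups overlapped. Cdc25b and Cdc25c were low, at means of 48.5 and 29.3 CPM in miR-99 KD and 40.7 and 26.7 in Scr.

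The mitotic kinases and the chromosomal passenger complex, in which INCENP, survivin (Birc5) and borealin (Cdca8) carry Aurora B to centromeres and midzone, were less even. Of 6 genes, 4 were positive and 2 negative, with a median log2 fold change of 0.15. Their sums were 1085 and 1095 CPM in miR-99 KD and 981.1 and 994.9 in Scr. Birc5 measured 159.7 and 220.1 CPM in miR-99 KD and 137.2 and 136.2 in Scr (0.47 ± 0.21, adjusted p = 0.659). Aurkb, the kinase of that complex, measured 223.6 and 255.6 CPM in miR-99 KD and 202.4 and 199.0 in Scr (0.26 ± 0.15, adjusted p = 0.705). Both genes had both miR-99 KD libraries above both Scr libraries. Plk1, a kinase of mitotic entry that has been described as a target of the miR-99 family in human cells, had 123.0 and 119.7 CPM in miR-99 KD and 108.5 and 102.1 in Scr. Its log2 fold change was 0.20 ± 0.15 (adjusted p = 0.741), with no overlap between the groups. Aurka, the centrosomal Aurora kinase, measured 141.0 and 149.6 CPM in miR-99 KD and 147.5 and 144.7 in Scr, and Incenp 261.6 and 183.3 CPM in miR-99 KD and 223.8 and 252.1 in Scr. In each of them the Scr values fell between the miR-99 KD values, and the log2 fold changes were −0.01 and −0.10.

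The spindle assembly checkpoint had the lowest median of the roles, 0.10 over 5 genes. Its sums were 808.1 and 834.4 CPM in miR-99 KD and 759.6 and 764.5 in Scr. Mad2l1, whose product MAD2 binds and holds back CDC20, measured 116.8 and 150.9 CPM in miR-99 KD and 101.6 and 95.8 in Scr (0.44 ± 0.19, adjusted p = 0.659). Ttk, the kinase MPS1 that starts checkpoint signalling, averaged 70.5 ± 2.30 CPM in miR-99 KD and 54.5 ± 1.82 in Scr (SD, n = 2 each), without overlap. The BUB genes, whose products gather at unattached kinetochores, were uneven, with Bub1 and Bub1b negative and Bub3 positive. Bub1 measured 81.7 and 68.4 CPM in miR-99 KD and 82.9 and 86.3 in Scr, the one gene of the 52 with both miR-99 KD values below both Scr values (−0.17 ± 0.18, adjusted p = 0.792). Bub1b, which encodes BUBR1, had 244.4 and 170.1 CPM in miR-99 KD and 207.0 and 218.7 in Scr. The miR-99 KD libraries lay on either side of the Scr libraries, and the log2 fold change of −0.04 was 0.23 without miR-99 KD 2. Bub3 measured 296.4 and 372.9 CPM in miR-99 KD and 314.9 and 307.9 in Scr, a log2 fold change of 0.10, also with overlap.

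Of the genes that promote anaphase, all 4 were positive, with a median log2 fold change of 0.22 and sums of 439.0 and 513.8 CPM in miR-99 KD and 380.0 and 380.1 in Scr. Ube2c, the ubiquitin-conjugating enzyme that serves the anaphase-promoting complex, measured 150.1 and 218.7 CPM in miR-99 KD and 125.1 and 119.2 in Scr (0.59 ± 0.23, adjusted p = 0.639). Cdc20, the activator of that complex, measured 154.8 and 182.6 CPM in miR-99 KD and 143.2 and 145.4 in Scr (0.23 ± 0.16, adjusted p = 0.740). In both genes the groups did not overlap and miR-99 KD 2 was the highest library. Espl1, the protease separase, averaged 92.8 ± 18.4 CPM in miR-99 KD and 87.3 ± 6.46 in Scr. Pttg1, its inhibitor securin, averaged 30.4 ± 3.17 CPM in miR-99 KD and 26.3 ± 3.75 in Scr. In both of these genes the groups overlapped.

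The centromere and kinetochore genes held 2 of the 3 genes under an unadjusted p of 0.05. All 7 were positive, with a median of 0.20 and sums of 810.5 and 1017 CPM in miR-99 KD and 702.1 and 739.2 in Scr. The NDC80 complex, the rod that grips the microtubule, has 4 subunits, all in the list. Nuf2 measured 109.5 and 167.9 CPM in miR-99 KD and 85.5 and 84.0 in Scr (0.71 ± 0.25, adjusted p = 0.621). Spc25 measured 112.9 and 157.2 CPM in miR-99 KD and 86.8 and 83.8 in Scr (0.66 ± 0.22, adjusted p = 0.612). Ndc80 measured 81.5 and 111.6 CPM in miR-99 KD and 64.4 and 69.2 in Scr (0.53 ± 0.22, adjusted p = 0.655). In these 3 subunits the Scr libraries lay close together, miR-99 KD 1 above them and miR-99 KD 2 further above. Spc24, the partner of Spc25 at the inner end of the rod, had 73.0 and 71.1 CPM in miR-99 KD and 64.9 and 60.5 in Scr, a smaller difference (log2 fold change 0.20) also without overlap. Whether the subunits differ from each other was not tested. Cenpa, the histone H3 variant that marks centromeres, had 197.2 and 261.3 CPM in miR-99 KD and 202.1 and 197.1 in Scr, a difference carried by miR-99 KD 2. Cenpe, a kinetochore motor, averaged 127.1 CPM in miR-99 KD and 111.8 in Scr, and Cenpf averaged 115.1 CPM in miR-99 KD and 109.7 in Scr, with overlapping groups in each.

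All 10 kinesins, motors that walk along or take apart microtubules, had positive log2 fold changes (median 0.28). In 7 both miR-99 KD libraries lay above both Scr libraries, against 18.9% of all genes. The 10 kinesins summed to 1321 and 1465 CPM in miR-99 KD and 1092 and 1162 in Scr. Kif11, the motor Eg5 that pushes spindle poles apart, had the smallest p of the 52 genes. It measured 353.1 and 408.0 CPM in miR-99 KD and 265.3 and 278.0 in Scr, a log2 fold change of 0.49 ± 0.15 (adjusted p = 0.600) that ran from 0.41 to 0.65 with each library left out. Kif15, a motor that can share the work of Eg5, measured 139.7 and 150.9 CPM in miR-99 KD and 106.8 and 116.5 in Scr (0.38 ± 0.15, adjusted p = 0.655). Kif18a, which limits the length of kinetochore microtubules, and Kif20b, a motor of late mitosis, had log2 fold changes of 0.40 and 0.41. Kif4, Kif2c and Kif22 followed at 0.28, 0.27 and 0.22, all without overlap. The overlapping 3 were Kif23, Kif20a and Kifc1. Kif23 and Kif20a, motors of the midzone, had 0.11 and 0.05. Kifc1 was the lowest gene of the list, at means of 14.4 CPM in miR-99 KD and 12.4 in Scr, and it is uncertain because reads shared with its close copy Kifc5b do not enter gene counts.

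Proteins that bundle or nucleate spindle microtubules were represented by Nusap1, Tpx2 and Hmmr, all positive and without overlap. They summed to 497.9 and 630.6 CPM in miR-99 KD and 432.6 and 442.1 in Scr. Over all genes, 18.9% had both miR-99 KD libraries above both Scr libraries. Nusap1, a microtubule bundler, measured 179.2 and 262.1 CPM in miR-99 KD and 151.4 and 144.5 in Scr (0.58 ± 0.23, adjusted p = 0.650). Tpx2, the activator of Aurora A, averaged 223.2 ± 11.5 CPM in miR-99 KD and 190.3 ± 10.4 in Scr (SD, n = 2 each).

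The genes of the midzone and of cytokinesis numbered 4, and all had both miR-99 KD libraries above both Scr libraries, against 18.9% of all genes. Sums of the 4 were 774.6 and 808.8 CPM in miR-99 KD and 618.7 and 676.8 in Scr. Ect2, which activates RhoA at the cell equator, measured 181.0 and 204.7 CPM in miR-99 KD and 143.3 and 155.6 in Scr (0.37 ± 0.16, adjusted p = 0.659). Prc1, the bundler of midzone microtubules, averaged 248.2 ± 29.0 CPM in miR-99 KD and 197.5 ± 9.52 in Scr. Anln, the scaffold anillin, had a log2 fold change of 0.24, and Racgap1, the partner of Kif23 in centralspindlin, had 0.21.

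Condensin and the mitotic chromosome had the highest median of the roles, 0.32 over 6 genes, and the largest sums, 2108 and 1985 CPM in miR-99 KD and 1569 and 1821 in Scr. Mki67, which encodes the proliferation antigen Ki-67 that coats mitotic chromosomes, measured 317.6 and 282.2 CPM in miR-99 KD and 153.0 and 233.0 in Scr. Its log2 fold change was 0.64 ± 0.25 (adjusted p = 0.641) and 0.43 without Scr 1, the lowest library. Top2a, topoisomerase II alpha, which untangles sister DNA, measured 644.3 and 520.6 CPM in miR-99 KD and 436.0 and 493.4 in Scr (0.33 ± 0.18, adjusted p = 0.693). Here and in Mki67 it was miR-99 KD 1 that was highest. Of the condensin subunits, Ncapg, of condensin I, measured 172.0 and 206.5 CPM in miR-99 KD and 131.4 and 145.4 in Scr (0.45 ± 0.17, adjusted p = 0.635). Smc2, the core subunit of both condensins, measured 221.7 and 288.1 CPM in miR-99 KD and 199.8 and 210.6 in Scr (0.31 ± 0.19, adjusted p = 0.705). Both genes were without overlap. Smc4, the partner of Smc2, was more abundant, 471.8 and 500.9 CPM in miR-99 KD and 413.0 and 483.8 in Scr, with overlap and a log2 fold change of 0.12. Ncapd2, another subunit of condensin I, measured 281.0 and 186.2 CPM in miR-99 KD and 236.2 and 254.8 in Scr, so that the miR-99 KD libraries lay on either side, and its value of −0.07 was 0.23 without miR-99 KD 2.

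**Figure D2:**
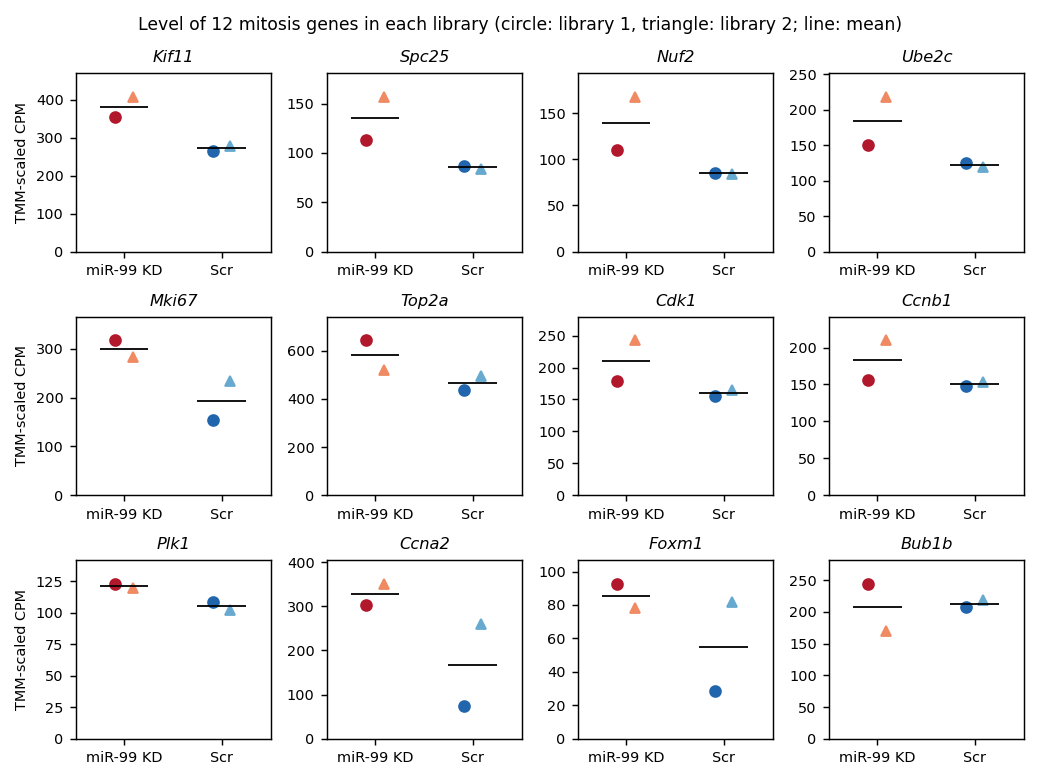
Level in TMM-scaled CPM on the y axis for 12 mitosis genes in the 2 miR-99 KD and 2 Scr libraries; points are libraries and lines are group means. Kif11, Spc25, Nuf2 and Ube2c have both miR-99 KD points above both Scr points, Ccna2 and Foxm1 have 1 low Scr point (Scr 1), and the miR-99 KD points of Bub1b lie on either side of the Scr points.

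On the TMM scale, both miR-99 KD sums lay above both Scr sums in each of the 9 roles. For the checkpoint this depended on the scaling: without TMM factors, Scr 1 lay above miR-99 KD 1. The ratio of group means ran from 1.08 for the checkpoint and 1.10 for the kinases to 1.29 for the spindle-associated proteins and 1.36 for the starters of mitosis, the last with Scr 1 well below Scr 2. The roles were not compared by a test.

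**Figure D3:**
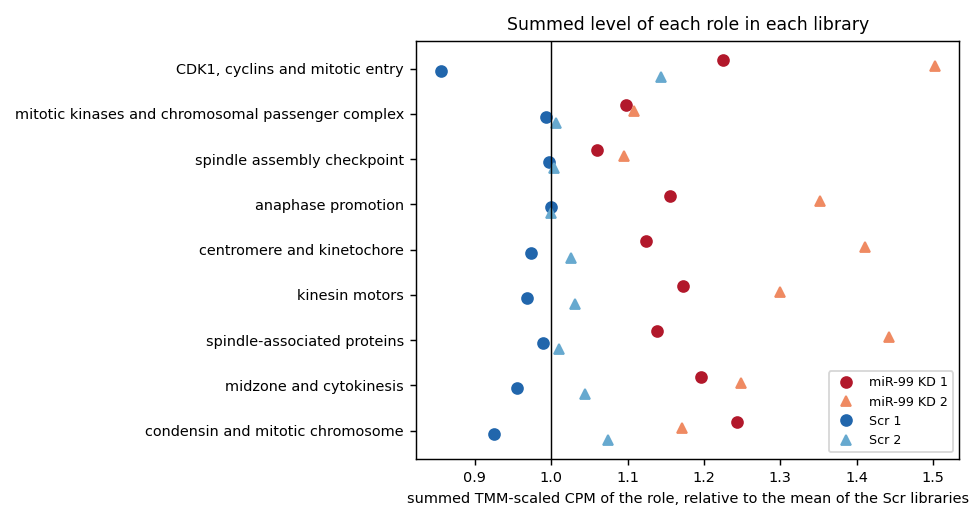
Summed level of each role in each library, as TMM-scaled CPM divided by the mean of the Scr libraries (x axis), for the 9 roles. In each role both miR-99 KD points lie to the right of both Scr points, and the Scr points lie furthest apart for CDK1, the cyclins and mitotic entry.

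The promoters of these genes share features already known from G2 and mitosis genes, so the matches describe the list and are no independent result. The cell cycle genes homology region (CHR), bound by MuvB complexes, was searched as TTTGAA or TTCGAA, and the box bound by NF-Y as CCAAT, each on both strands, in RefSeq promoters of 300 bases on GRCm38.p6 (250 before the start and 50 after it). An entry was found for 43 of the 52 genes, 46 promoters in all, and a gene was counted as holding a motif if any of its promoters did. Of these, 35 (81.4%) held a CHR match, against 21.7% of 27025 genes, and 32 (74.4%) held CCAAT, against 41.1%. Both were present in 30 (69.8%), against 8.61% of all genes. In 1 promoter a CHR and a CCAAT match shared a base. The CHR matches gathered at the start site: 32 of the 43 genes (74.4%) had one within 50 bases of it, against 6.12% of all genes. Positions are counted from the start of the promoter entry, which was the start of the RefSeq gene in 22 of the 46 promoters. A match is a run of letters and does not show that a factor binds there.

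**Figure D4:**
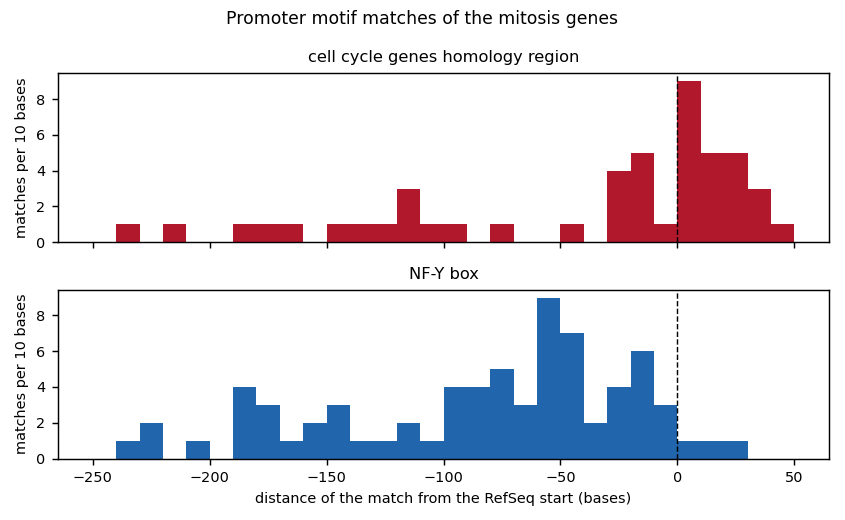
Distance from the RefSeq start in bases (x axis) and number of matches per 10 bases (y axis) in the promoters of 43 mitosis genes, for the cell cycle genes homology region (48 matches, median position −10) and the NF-Y box (72 matches, median position −67.5); a site in overlapping promoters of 1 gene is counted once, from the nearer start. The first kind peaks at the start and the second ahead of it.

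The stretches below show both arrangements in genes whose values are given above, and 1 gene that lacks them. They begin 120 bases before the start, stop before any annotated exon of the gene, and run 5′ to 3′ on the strand of the gene. Capitals mark a match to either motif. Read on the other strand, a CHR appears as TTCAAA and an NF-Y box appears as ATTGG.
Cdk1, chr10:69352939-69353032, minus strand: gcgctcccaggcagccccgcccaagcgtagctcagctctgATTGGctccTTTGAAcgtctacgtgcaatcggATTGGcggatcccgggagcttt
Ccnb2, chr9:70421555-70421674, minus strand: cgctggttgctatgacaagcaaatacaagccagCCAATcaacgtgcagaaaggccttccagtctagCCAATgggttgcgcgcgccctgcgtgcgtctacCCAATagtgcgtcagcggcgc
Cdc20, chr4:118437353-118437463, minus strand: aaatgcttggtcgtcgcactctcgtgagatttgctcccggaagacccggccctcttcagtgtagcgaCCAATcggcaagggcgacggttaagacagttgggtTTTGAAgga
Kif11, chr19:37376262-37376381, plus strand: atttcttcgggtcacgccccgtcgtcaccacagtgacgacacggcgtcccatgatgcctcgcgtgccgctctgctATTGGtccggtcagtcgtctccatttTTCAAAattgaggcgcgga
Top2a, chr11:99024190-99024309, minus strand: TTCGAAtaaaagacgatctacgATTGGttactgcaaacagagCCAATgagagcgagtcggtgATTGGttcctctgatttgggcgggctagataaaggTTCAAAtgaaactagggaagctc
Ncapg, chr5:45669805-45669918, plus strand: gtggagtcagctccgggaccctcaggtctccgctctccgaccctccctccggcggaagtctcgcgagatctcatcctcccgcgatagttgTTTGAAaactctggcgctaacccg
Nuf2, chr1:169531465-169531584, minus strand: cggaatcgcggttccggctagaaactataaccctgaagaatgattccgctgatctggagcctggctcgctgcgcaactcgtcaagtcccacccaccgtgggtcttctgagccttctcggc

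Cdk1, Cdc20 and Top2a hold both motifs in the stretch shown, and Kif11 has its NF-Y box at −45 and its CHR at −19. Ncapg holds a CHR alone in the stretch shown, with its NF-Y box at −176, ahead of that stretch. Ccnb2 has 3 NF-Y boxes at −87, −54 and −21, with its nearest CHR at position 5, past the stretch shown. Spacings of this kind, 28 to 36 bases between the starts of CCAAT matches, occurred in 10 of the 43 genes (23.3%) and in 2.58% of all genes, with limits chosen after the matches were seen. Nuf2 had neither motif in its 300 bases. The 35 genes with a CHR match had a median log2 fold change of 0.25, and the 8 without (Birc5, Ccnb1, Cenpe, Kif18a, Mad2l1, Nuf2, Nusap1 and Pttg1) had 0.42. Over all genes tested with a promoter, the medians were 0.00 for the 1730 with a CHR match and −0.03 for the 8695 without.

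The mature microRNAs of the miR-99 family are shown because they are what the knockdown is named for, with the seed, bases 2 to 8, in capitals. The sequences are those of RefSeq, and the 3 share 1 seed.
mmu-miR-99a-5p: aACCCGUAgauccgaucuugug
mmu-miR-99b-5p: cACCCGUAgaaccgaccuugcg
mmu-miR-100-5p: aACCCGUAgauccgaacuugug

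The longest annotated 3′ UTRs were searched for TACGGGT, which pairs with bases 2 to 8, and for ACGGGTA, which pairs with bases 2 to 7 and ends in an A. TACGGGT was present in 0 of the 52 genes, against 188 of 12436 genes tested (1.51%). With ACGGGTA included, 2 of the 52 (3.85%) had a match, against 327 of 12436 (2.63%). The median UTR length was 877 bases in the mitosis genes and 1339 bases in all genes tested. Both matches are therefore of the ACGGGTA kind, shown here in capitals with the bases around them.
Cdk1 site: gctttcctccACGGGTAggccacaggc
Nuf2 site: gctcactaacACGGGTAccactagttc

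The Cdk1 match began at base 2555 of a UTR of 3355 bases, and the Nuf2 match at base 105 of 858. Their log2 fold changes, 0.39 and 0.71, are those given above, and neither passed the test. The longest UTR of Plk1 held no match, which says only that these letters are not in it.

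The rest of the mitotic machinery was read from 131 further genes in 7 lists, all of them tested. None passed an adjusted p of 0.05, 4 were higher at an unadjusted p under 0.05, against 2.66% of all genes, and 0 were lower, against 5.23%. Positive values were found for 95 and negative values for 36, with a median log2 fold change of 0.15. The kinetochore and centromere genes outside the 52 were closest to them, 29 of 34 positive with a median of 0.26, followed by the other G2 and mitosis regulators, 16 of 19 positive with a median of 0.26, and MuvB, B-Myb and NF-Y subunits, 8 of 9 positive with a median of 0.24. Cohesin (9 of 12 positive, median 0.12), the other condensin subunits (2 of 4, median 0.06), the anaphase-promoting complex (10 of 16, median 0.05) and the other spindle and centrosome genes (21 of 37, median 0.08) lay closer to 0. The differences between lists were not tested.

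Sgo2a, a shugoshin that guards centromeric cohesin, measured 49.3 and 57.3 CPM in miR-99 KD and 23.5 and 34.9 in Scr (0.87 ± 0.27, adjusted p = 0.595). Esco2, which acetylates cohesin as DNA is copied, measured 71.5 and 90.8 CPM in miR-99 KD and 51.8 and 49.4 in Scr (0.68 ± 0.20, adjusted p = 0.583). Ckap2l, a spindle protein, measured 162.6 and 196.3 CPM in miR-99 KD and 119.8 and 121.4 in Scr (0.57 ± 0.17, adjusted p = 0.583). These 3 had no overlap between the groups. Fbxo5, which encodes EMI1, an inhibitor of the anaphase-promoting complex, measured 76.0 and 87.6 CPM in miR-99 KD and 57.9 and 57.7 in Scr (0.50 ± 0.17, adjusted p = 0.621), likewise without overlap. Among the upstream regulators, Lin9 of MuvB had a log2 fold change of 0.39 ± 0.19 and Mybl2, which encodes B-Myb, −0.12 ± 0.38. Mybl2 was low in Scr 1 and in miR-99 KD 2 and so crossed the groups. The lowest p among the negative values of the other lists belonged to Nipbl, a cohesin loader (−0.34), Troap (−0.27), Mad1l1, the checkpoint partner of MAD2 (−0.22), Bora, an activator of Plk1 (−0.19), Anapc5 (−0.18) and Ncapd3 of condensin II (−0.03). Ncaph of condensin I and Anapc11 had the lowest p among the positive values of their lists, with 0.28 and 0.50.

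**Figure D5:**
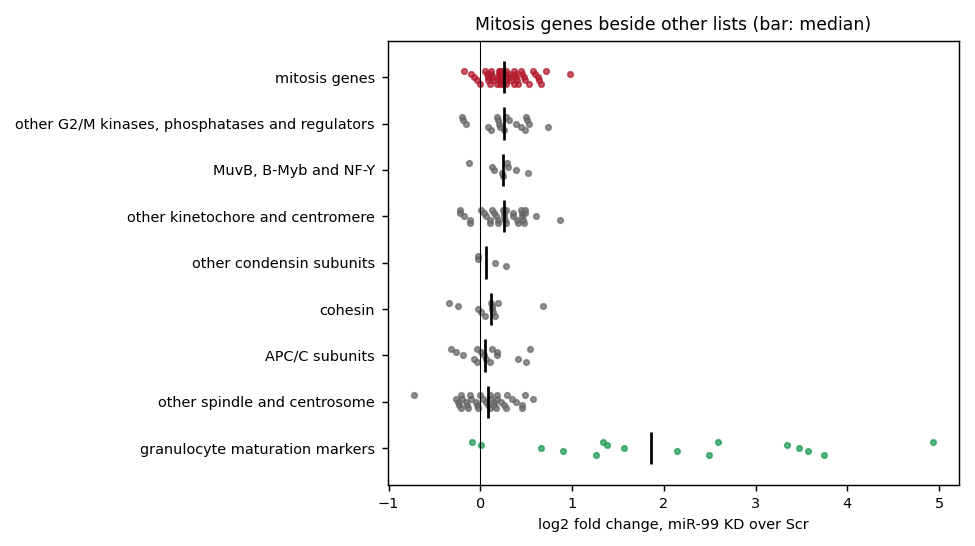
Log2 fold change of miR-99 KD over Scr (x axis) for the 52 mitosis genes, the 7 other lists of the mitotic machinery and the granulocyte maturation markers; points are genes and bars are medians. The medians are 0.25 for the mitosis genes, 0.05 to 0.26 for the other mitotic lists and 1.86 for the granulocyte markers.

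Other properties of the libraries moved with the groups. Of 16 granulocyte maturation markers, 15 had positive log2 fold changes (median 1.86). At an unadjusted p under 0.05, 12 were higher, against 2.66% of all genes. None of the 16 passed edgeR's adjusted test, while DESeq2 called 8 higher at an adjusted p of 0.05, against 0.725% of all genes. None of the 16 was at 0 in any library. They summed to 15370 and 33350 CPM in miR-99 KD and 8846 and 5737 in Scr, so that miR-99 KD 2, the library with the highest level for most mitosis genes, also had the highest marker sum. Monocyte and macrophage markers summed to 3049 and 4334 CPM in miR-99 KD and 2618 and 2557 in Scr, with a median of 0.38 over 10 genes. Stromal and endothelial markers summed to 362.0 and 276.5 CPM in miR-99 KD and 564.9 and 561.7 in Scr, nearly all of it Vcam1 and Pecam1. Vcam1 made the difference, with 207.3 and 138.3 CPM in miR-99 KD and 445.3 and 444.1 in Scr, while Pecam1 was higher in miR-99 KD, with 153.5 and 136.1 CPM, against 114.6 and 114.8 in Scr. Cdh5 was at 0 in both miR-99 KD libraries and had only 2 counts in Scr 1 and 1 in Scr 2. Erythroid markers summed to 207.0 and 316.1 CPM in miR-99 KD and 181.5 and 242.9 in Scr, a sum carried by Tfrc (158.8 and 200.5 CPM in miR-99 KD, 106.9 and 134.1 in Scr). Of the 11 erythroid markers tested, 8 were negative, with a median log2 fold change of −0.93. At an unadjusted p under 0.05, 3 were lower, against 5.23% of all genes, and 1, Tfrc, was higher, against 2.66%. DESeq2 called 1 erythroid marker lower, against 0.949% of all genes. B cell markers summed to 65.9 and 89.8 CPM in miR-99 KD and 72.9 and 63.2 in Scr, most of it Cd79b, while Pax5 was at 0 in 3 libraries. T and NK cell markers summed to at most 3.47 CPM in any library. Mitochondrial genes took 0.853% and 1.16% of gene counts in miR-99 KD and 0.650% and 0.637% in Scr. Reads outside annotated genes were 13.5% and 12.01% of entries in miR-99 KD and 19.8% and 14.9% in Scr. The part of these cell types and library properties in the values of the mitosis genes was not tested.

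Base composition moved with the difference between the miR-99 KD libraries. Over the 52 genes, the difference of miR-99 KD 1 minus miR-99 KD 2 in log2 CPM had a Pearson correlation of 0.45 with transcript GC content (Spearman 0.41), against 0.17 over 15519 genes. The points share their libraries and are no replicates. The difference of miR-99 KD minus Scr had a correlation of −0.25 with GC (Spearman −0.40), against −0.07 over all genes. The mean GC content was 46.7% in the 52 genes and 49.3% in all genes. Scr 1 minus Scr 2 had a Spearman correlation of −0.52 with transcript length over the 52 genes, against −0.20 over all genes. The Pearson values, on log2 length, were −0.245 and −0.08. For miR-99 KD minus Scr, the Spearman correlation with length was 0.15 over the 52 genes and −0.18 over all genes. The part of base composition and length in the values was not tested. Exons of 14 of the 52 genes overlap a gene on the opposite strand, and those of 3 (Foxm1, Ncapd2 and Top2a) a gene on the same strand. The sources used here do not say whether counting used the strand, so reads of such neighbours cannot be told apart.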

How the data were processed

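RNA sequencing counts of 4 libraries, 2 miR-99 KD and 2 Scr, were used. Per the labels' protocols, SMARTer amplification was used on RNA from Trizol LS lysates. Per the submitters' processing notes, STAR, Picard, HTSeq and DESeq2 were used with the genome build mm9. The deposited values are raw counts per gene, whole numbers with no scaling. The sources used here do not give the annotation release, the strand setting or the read layout. The 5 categories that name no gene held 43.7% and 46.6% of entries in miR-99 KD and 49.7% and 43.7% in Scr and were left out. Alignments that were not unique were among them.

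Symbols were matched by identifier (44585 of 45232 had one). The main test was edgeR 4.0.16 (R 4.3.3), a two-sided quasi-likelihood test with group as its term and TMM factors. The default filter (minimum count 10) kept 15591 genes, over which p-values were adjusted by Benjamini-Hochberg. The biological coefficient of variation was 0.32, with 2 residual and 2.41 prior degrees of freedom. DESeq2 1.42.0 and limma 3.58.1 (voom), other scaling factors, other filters, a replicate block and leaving out each library were the alternatives. CPM are scaled to the counts of the genes kept times the TMM factor. Standard errors are derived from the test statistic. Exon lengths, overlaps and UTRs came from GENCODE M21 (GRCm38) by gene identifier, and promoters and microRNAs are those of RefSeq. The fits were also run on simulated counts, and no result given here rests on that run. The limit of 3 counts that a count of 0 allows covers counting error alone, and amplified reads need not be independent molecules.

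The 52 genes and all lists were chosen with earlier results of these data known. Values are given for 12 fixed genes, for the gene with the highest level per length and the gene with the smallest p of each role, for the 10 with the smallest p, for those with a negative value, and for the smallest p in each direction of each mitotic list. Cdk1 and Nuf2 also follow from the seed search, and other genes are given as further members of their role. Mice are the replicates. A planned search for degrons in the proteins was not run.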

Additional observations from a re-analysis of the deposited data

How the results depend on the processing

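With 2 libraries per group, the fit had 2 residual degrees of freedom, which limits its precision for single genes. None of the 52 mitosis genes was called under any alternative tried. Over all genes, the calls in miR-99 KD against Scr were 0 higher and 0 lower; they were 10 and 13 with upper-quartile factors, 5 and 4 with no filter, 113 and 148 with DESeq2, and from 0 to 158 and from 0 to 136 with each library left out (the highest without Scr 1). The cause of these differences was not tested. Mitosis genes higher at an unadjusted p under 0.05 numbered 3; the count was 5 with DESeq2 size factors, 1 with upper-quartile factors, 8 with no filter, and 0 to 23 with each library left out. None was lower under any of them.

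The count with a positive log2 fold change, an alternative count chosen after seeing the data, stayed between 46 and 51 of 52. The median stayed between 0.22 and 0.31 and was 0.25 to 0.38 with each library left out. The count with both miR-99 KD libraries above both Scr libraries was 24 to 37 under other scaling and filters and 38 to 44 with 1 library fewer, where 33.9% to 35.9% of all genes met that condition. The count below both was 1; it was 0 with no filter and 0 to 4 with each library left out. The ratio of summed CPM was 1.17 and ran from 1.11 to 1.23. Other tests give no value for the counts of libraries above or below. With no filter, the median of all genes was −0.20, against −0.01, with many more low genes tested.

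The labels number the replicates in both groups but give no pairing, and the differences of replicate 1 minus replicate 2 had a correlation of −0.43 between the groups over all genes. With the replicate block, 0 mitosis genes were under an unadjusted p of 0.05, 47 were positive and the median was 0.25.

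Of 29 genes followed, 5 reversed their sign in 14 of 319 alternative values. Aurka was 0.031 with DESeq2 size factors, 0.031 in DESeq2, 0.049 with no filter, and −0.019 (without miR-99 KD 2) to 0.094 (without miR-99 KD 1) with each library left out. Bub1b was 0.017 with no filter. With each library left out, Bub1b ran from −0.26 to 0.23, Incenp from −0.32 to 0.17, Ncapd2 from −0.34 to 0.23 and Ccnb2 from −0.040 to 0.39. For Bub1b, Incenp and Ncapd2 the lowest value was without miR-99 KD 1 and the highest without miR-99 KD 2, and for Ccnb2 the reverse.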
